A study of Homo sapiens with 4 samples.

Results

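The genes described here are 34 genes of the integrated stress response and of transfer RNA (tRNA) charging, taken by symbol from the 61228 features counted in each library. All 34 were found under the symbols sought, and all passed the filter on low counts, NUPR1 through the DMSO libraries alone. They were split by role into 8 regulators of the response, 11 genes of amino acid supply with the sensors that act on it, 3 further stress genes (NUPR1, VLDLR and STC2) and 12 cytosolic tRNA synthetases. The cells were H1792, an established human lung cancer line, labelled WT for genotype. They were kept for 96 h with the solvent DMSO (2 libraries) or with ACBI1 at a dose that the labels write as 1 mM (2 libraries). ACBI1 is a degrader that carries SMARCA2, SMARCA4 and PBRM1, proteins of the SWI/SNF chromatin remodelling complexes, to the VHL ubiquitin ligase. The series concerns SMARCA4 mutation, immunity and STING in lung cancer, and the comparison asks which transcripts of these 34 genes differed after the degrader. A single cell line was used and the labels do not say whether replicates were separate cultures, so p-values measure only the spread between these libraries.

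Cells enter the integrated stress response when a kinase phosphorylates the translation factor eIF2 alpha. PERK (gene EIF2AK3) does so when unfolded proteins fill the endoplasmic reticulum, and GCN2 (EIF2AK4) when tRNAs stand uncharged. Most translation then slows, while the transcription factor ATF4 is made from its messenger RNA at a higher rate, so that the ATF4 transcript is an incomplete reading of the pathway. ATF4 binds C/EBP-ATF response elements, often with a C/EBP partner, and raises genes for amino acid synthesis, amino acid import and cytosolic tRNA synthetases. DDIT3 and TRIB3 act in prolonged stress, and PPP1R15A brings a phosphatase back to eIF2 alpha.

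Counts in genes summed to between 64281850 and 86010100 per library. With DMSO, the 34 genes held 1.26% of them in replicate 1 and 0.947% in replicate 2. With ACBI1 they held 1.29% and 1.20%. Mitochondrial genes held 5.31% to 6.85%. Transcripts of the degrader's targets were not called changed (edgeR adjusted p of 0.0583 for SMARCA4, 0.163 for SMARCA2 and 0.734 for PBRM1). SMARCA4 just missed the threshold, with a log2 change (ACBI1 minus DMSO) of 0.70, 95% interval 0.22 to 1.18. Both of its ACBI1 libraries lay above both DMSO libraries. Proteins were not analysed here. For the marker counts that follow, the share called lower over all genes tested was 10.6%. Of 7 epithelial markers 5 were called lower. The summed level of the 7 was 336 and 421 CPM (counts per 1000000 counts, scaled by TMM) with DMSO against 146 and 142 CPM with ACBI1, mostly KRT8 and KRT18. EPCAM had a positive log2 change of 1.32 that was not called (edgeR adjusted p 0.179). KRT8 lay at 60.9 to 192 CPM, while CDH1 reached at most 0.222 CPM and the lung factor NKX2-1 had 0 counts in each library. Of 3 fibroblast markers 2 were called lower with ACBI1, DCN and LUM. The summed level of all 3 was 333 and 716 CPM with DMSO against 62.9 and 212 CPM with ACBI1. Most of that sum was COL1A1, at 324 and 693 CPM with DMSO and 62.3 and 210 CPM with ACBI1. COL1A1 was not called (edgeR adjusted p 0.0860). Of 3 endothelial markers 2 were called lower, from 12.6 and 48.5 summed CPM to 0.0112 and 0.0458 CPM. These, PECAM1 and VWF, passed the filter through the DMSO libraries alone, and VWF had 0 counts with ACBI1. Leukocyte markers summed to at most 0.0860 CPM, with CD3E at 0 counts throughout. The part of these marker shifts in the results below was not tested.

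The regulatory letters shared by many of the 34 genes are shown first, because the C/EBP-ATF response element is the known binding site of ATF4. Promoter windows, from 250 bases before to 50 bases after a start site, came from RefSeq on GRCh38.p14 and matched 28 of the 34 genes. The core of the C/EBP-ATF response element was searched as TGATGNAAN on both strands. It was found in 11 of the 28 genes, or 39.3%, against 4.45% of all 27305 genes with a window. Among synthetases 7 of 10 held it (AARS1, CARS1, GARS1, IARS1, MARS1, NARS1 and TARS1), against 0 of 9 of the remaining cytosolic synthetases and scaffold subunits. The 34 genes were listed as genes of the pathway that ATF4 drives. A share above that of all genes, here and among the synthetases, therefore describes their choice only. A match describes letters and is not evidence of binding. The stretches below lie before the start site, read 5′ to 3′ on the strand of the gene, and the capitals mark the match.
AARS1 (chr16:70289660-70289720, minus strand): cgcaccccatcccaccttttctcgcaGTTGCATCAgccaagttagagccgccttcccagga
GARS1 (chr7:30594818-30594877, plus strand): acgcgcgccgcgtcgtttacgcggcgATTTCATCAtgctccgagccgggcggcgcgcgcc
IARS1 (chr9:92293698-92293737, minus strand): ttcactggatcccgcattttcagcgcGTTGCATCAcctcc
CEBPG (chr19:33374045-33374105, plus strand): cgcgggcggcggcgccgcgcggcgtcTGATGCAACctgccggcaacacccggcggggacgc
CHAC1 (chr15:40953235-40953295, plus strand): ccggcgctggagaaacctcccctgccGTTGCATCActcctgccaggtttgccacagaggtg
ASNS (chr7:97872442-97872502, minus strand): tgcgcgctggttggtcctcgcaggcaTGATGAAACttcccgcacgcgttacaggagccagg

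None of these 11 genes was called changed by the degrader, where 17.4% of all genes tested were called. The log2 changes of the 11, ACBI1 minus DMSO, ran from -0.18 (SLC3A2) to 0.92 (ASNS), with a median of 0.22. CEBPG, ASNS and IARS1 were called higher without DMSO replicate 1 and, in a separate alternative, without a filter on low counts. Without DMSO replicate 2 none of them was called. The 17 genes with a window but without the core included 6 called lower, against 10.6% called lower over all genes tested. Of these 6, VLDLR and STC2 were named with their fall known. Of the 11 genes with the core, 7 were synthetases. Among the other ATF4 targets described below, 4 of 7 genes with the core were called lower, and 5 of 12 without it. The difference between genes with and without the core was not tested. The synthetase WARS1 was among the 6, and its window held other letters. A pair of GAAA blocks, searched on both strands with any 2 bases between the blocks and known from interferon-stimulated response elements, was in 4.38% of all genes and in WARS1 and ATF5 among the 28. The STAT motif GAS, searched as TTCNNNGAA on both strands, was in 9.38% of all genes and in SLC3A2, CARS1, TARS1 and WARS1 among the 28. Matches of different motifs did not overlap in these genes. These further motifs were chosen after the WARS1 values were known.
WARS1, GAAA pair (chr14:100375367-100375428, minus strand): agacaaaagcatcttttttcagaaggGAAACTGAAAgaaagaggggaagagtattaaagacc
WARS1, GAS (chr14:100375455-100375515, minus strand): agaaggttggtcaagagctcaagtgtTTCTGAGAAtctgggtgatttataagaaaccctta

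**Figure D1:**
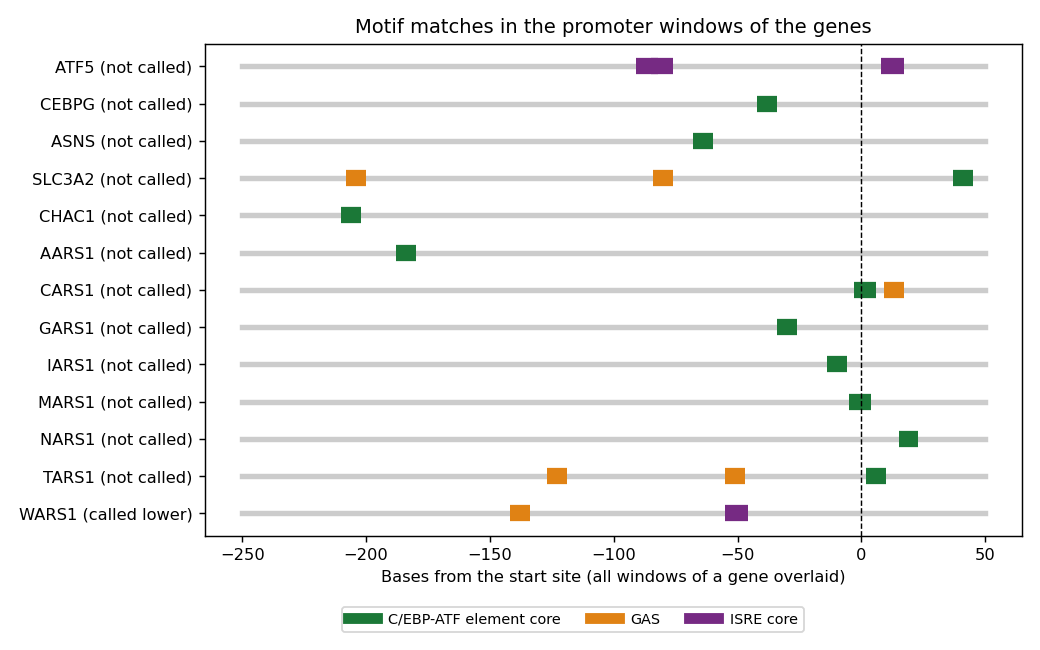
Positions of motif matches in the promoter windows of the 13 genes with any match, in bases from the start site (dashed line), with the edgeR call beside each symbol. Grey bars span the window, and coloured blocks mark the C/EBP-ATF element core, GAS and the ISRE core (the GAAA pair). The 11 genes with a green block are all marked not called. WARS1 and ATF5 have none, and WARS1 is marked called lower and ATF5 not called.

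With ACBI1, 8 of the 34 transcripts were called lower and 0 higher, by edgeR's quasi-likelihood test at a Benjamini-Hochberg adjusted p under 0.05. At an unadjusted p under 0.05 there were 10, the other two being ATF5 and EPRS1. Over all 19159 genes tested, 17.4% were called, 10.6% lower and 6.75% higher. The calls fell on 3 of 8 regulators, 1 of 11 amino acid genes, all 3 further stress genes and 1 of 12 synthetases. The further stress genes were named with their fall already known, so their count is a description only. Without them 5 of 31 genes were called, or 16.1%, which is close to the 17.4% called in either direction over all genes. All 5 were lower, however, against 10.6% called lower over all genes. In 21 of the 34 genes the ACBI1 libraries lay wholly above (10) or wholly below (11) the DMSO libraries, against 63.2% of all genes tested (31.1% above, 32.2% below). The median log2 change was -0.48 for the regulators, 0.13 for the amino acid genes, -2.05 for the further stress genes and 0.21 for the synthetases, against 0.01 for all genes tested. In bulk RNA, fewer cells that express a gene and less RNA per cell cannot be told apart.

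**Figure D2:**
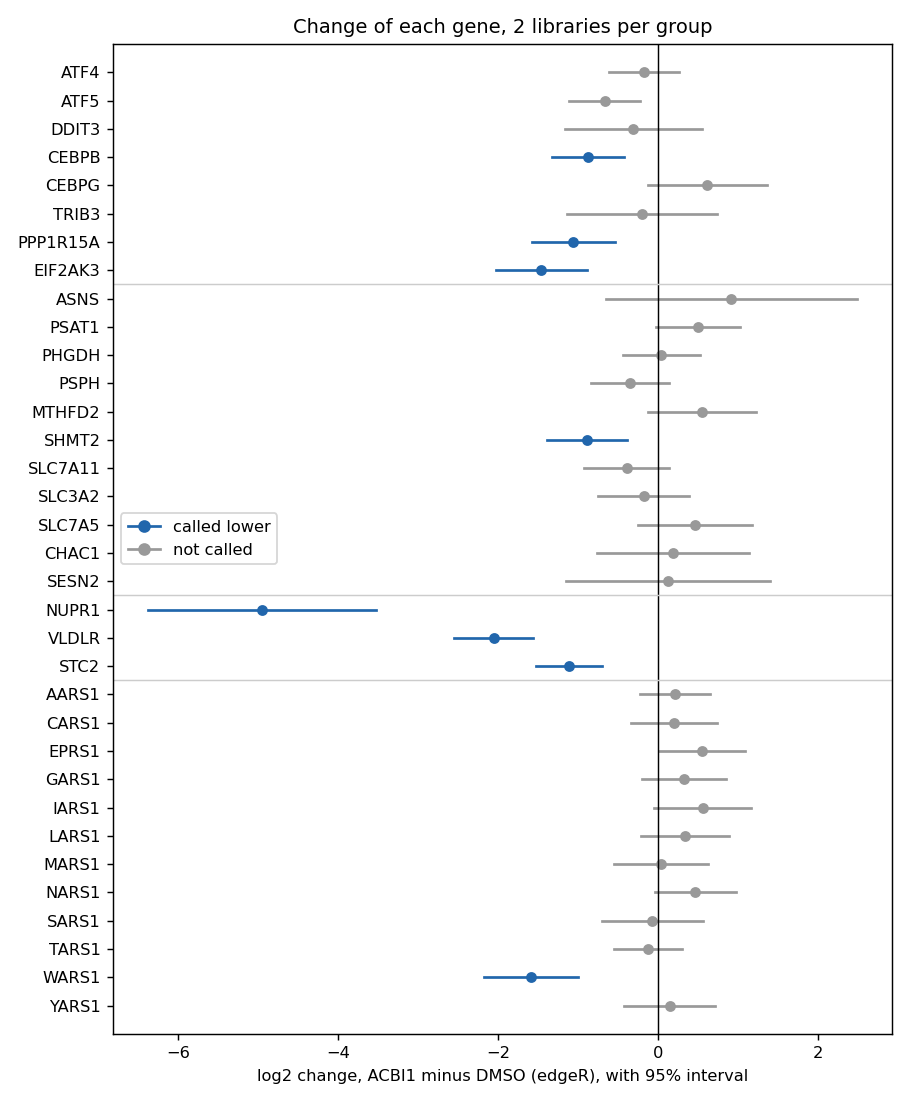
Fitted log2 change of each of the 34 genes (ACBI1 minus DMSO, horizontal axis) with its 95% interval, grouped by role from the regulators at the top to the synthetases at the bottom. The 8 genes called lower are blue, and NUPR1 lies farthest left at -4.95.

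Of the 8 regulators, EIF2AK3, PPP1R15A and CEBPB were lower with ACBI1, while ATF4 itself, ATF5, DDIT3, TRIB3 and CEBPG were not called. EIF2AK3 (GRCh38 chr2:88556741-88627576, minus strand), which encodes the kinase PERK, stood at 58.3 and 77.2 CPM in the DMSO libraries and at 20.7 and 28.7 CPM in the ACBI1 libraries. Both ACBI1 libraries were below both DMSO libraries, and the fall was 2.75-fold (log2 change -1.46, SE 0.23, edgeR adjusted p 0.0129). PPP1R15A (chr19:48872392-48876057, plus strand), the stress-inducible phosphatase subunit GADD34, stood at 386 and 340 CPM with DMSO and at 203 and 147 CPM with ACBI1. Its groups did not overlap either, and it fell 2.08-fold (log2 change -1.05, SE 0.21, edgeR adjusted p 0.0249). Without ACBI1 replicate 2 this call was lost (adjusted p 0.108).

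CEBPB (chr20:50190734-50192689, plus strand), a C/EBP transcription factor active in inflammation and stress, stood at 236 and 301 CPM with DMSO and at 152 and 142 CPM with ACBI1. The fall was 1.83-fold (log2 change -0.87, SE 0.19, edgeR adjusted p 0.0290). The call was lost without DMSO replicate 2 (adjusted p 0.0651), without ACBI1 replicate 1 (0.113) and without ACBI1 replicate 2 (0.126). Its relative CEBPG, which pairs with ATF4, stood on the other side of zero. CEBPG had 201 and 115 CPM with DMSO and 280 and 207 CPM with ACBI1, groups that did not overlap but lay close (log2 change 0.62, SE 0.30, edgeR adjusted p 0.208). CEBPG was called higher without DMSO replicate 1 (log2 change 1.09) but not without DMSO replicate 2 (0.27). Without a filter on low counts it was called higher (edgeR adjusted p 0.0243).

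ATF4, the central transcription factor, stood at 369 and 424 CPM with DMSO and at 329 and 374 CPM with ACBI1. The groups overlapped, and the log2 change of -0.17 had a 95% interval from -0.60 to 0.26 (edgeR adjusted p 0.545). ATF5, a related factor induced under the same stress, stood at 68.6 and 55.7 CPM with DMSO and at 42.6 and 35.9 CPM with ACBI1. Here the groups did not overlap, but the log2 change of -0.66 (SE 0.18) just missed the threshold (edgeR adjusted p 0.0561). DESeq2 called ATF5 lower (adjusted p 0.0261), as did the edgeR fit without a filter on low counts (adjusted p 0.0110). ATF5 was also called lower without DMSO replicate 2 (log2 change -0.81), but not without DMSO replicate 1 (-0.50). Exons of other genes overlap 23.7% of its exonic length in GENCODE release 29, so that part of its counts is uncertain.

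DDIT3, the factor CHOP of prolonged stress, differed more between replicates than between groups, with 67.1 and 112 CPM under DMSO and 51.5 and 93.1 CPM under ACBI1. Its log2 change was -0.31 (edgeR adjusted p 0.589), and 39.6% of its exonic length is shared with other genes, among them the synthetase gene MARS1 on the opposite strand. TRIB3, a pseudokinase that DDIT3 and ATF4 induce, likewise spread widely within groups. It stood at 535 and 261 CPM with DMSO and at 426 and 267 CPM with ACBI1 (log2 change -0.20, 95% interval -1.13 to 0.74). The data therefore allow a change in TRIB3 in either direction.

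Among the 11 genes of amino acid supply, 1 was called. SHMT2 (chr12:57229327-57234935, plus strand), the mitochondrial serine hydroxymethyltransferase that passes carbon from serine to folate, stood at 441 and 349 CPM with DMSO and at 192 and 236 CPM with ACBI1. The fall was 1.85-fold (log2 change -0.89, SE 0.20, edgeR adjusted p 0.0348). The call was lost without DMSO replicate 1 (adjusted p 0.0547), without ACBI1 replicate 1 (0.186) and without ACBI1 replicate 2 (0.0728). MTHFD2, the next mitochondrial folate enzyme, had the opposite sign. It stood at 449 and 262 CPM with DMSO and at 548 and 496 CPM with ACBI1 (log2 change 0.55, SE 0.28, edgeR adjusted p 0.217). Without DMSO replicate 1 MTHFD2 was called higher (log2 change 1.00), but not without DMSO replicate 2.

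None of the serine synthesis enzymes was called, and a joint change was not tested. PHGDH, the first enzyme, stood at 282 and 214 CPM with DMSO and at 272 and 240 CPM with ACBI1, a log2 change of 0.05 with a 95% interval from -0.44 to 0.53. PSAT1, the aminotransferase that follows, stood at 259 and 234 CPM with DMSO and at 289 and 409 CPM with ACBI1 (log2 change 0.50, edgeR adjusted p 0.163). Its ACBI1 libraries were above both DMSO libraries but far apart from each other. PSPH, the phosphatase of the last step, had 51.7 and 55.5 CPM with DMSO and 35.2 and 49.0 CPM with ACBI1 (log2 change -0.35, edgeR adjusted p 0.276).

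ASNS, asparagine synthetase, is a classical ATF4 target and was scarce in these cells, at 7.26 and 1.90 CPM with DMSO and at 11.5 and 5.83 CPM with ACBI1. Its DMSO libraries differed more than the groups did, and the 95% interval of its log2 change of 0.92 reached from -0.65 to 2.49. Without DMSO replicate 1 ASNS was called higher (log2 change 2.19), but not without DMSO replicate 2 (0.25). Without a filter on low counts ASNS was called higher (edgeR adjusted p 0.0371). Another gene on the same strand, AC079781.5, overlaps 44.6% of the exonic length of ASNS in GENCODE release 29. Reads that overlap several counted genes are not counted for any of them. No feature of that name was among those counted, so whether ASNS lost reads in this way is not known and its count is uncertain.

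Amino acid transporters were abundant and not called. SLC7A5, the light chain of the large neutral amino acid transporter LAT1, stood at 1945 and 1107 CPM with DMSO and at 2019 and 2196 CPM with ACBI1 (log2 change 0.47, edgeR adjusted p 0.313). DMSO replicate 2 was the low library here. Without DMSO replicate 1 SLC7A5 was called higher (log2 change 0.93), but not without DMSO replicate 2. SLC3A2, the heavy chain shared with the cystine transporter, had 581 and 385 CPM with DMSO and 424 and 430 CPM with ACBI1. SLC7A11, the cystine-importing light chain, had 538 and 378 CPM with DMSO and 350 and 349 CPM with ACBI1 (log2 change -0.39, edgeR adjusted p 0.260). CHAC1, which degrades glutathione, had 33.4 and 55.3 CPM with DMSO against 33.0 and 68.6 CPM with ACBI1. SESN2, a leucine sensor that restrains mTORC1, had 164 and 92.0 CPM with DMSO against 210 and 69.7 CPM with ACBI1. The log2 changes were 0.20 for CHAC1 and 0.13 for SESN2. For both, the libraries of a group lay farther apart than the group means.

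**Figure D3:**
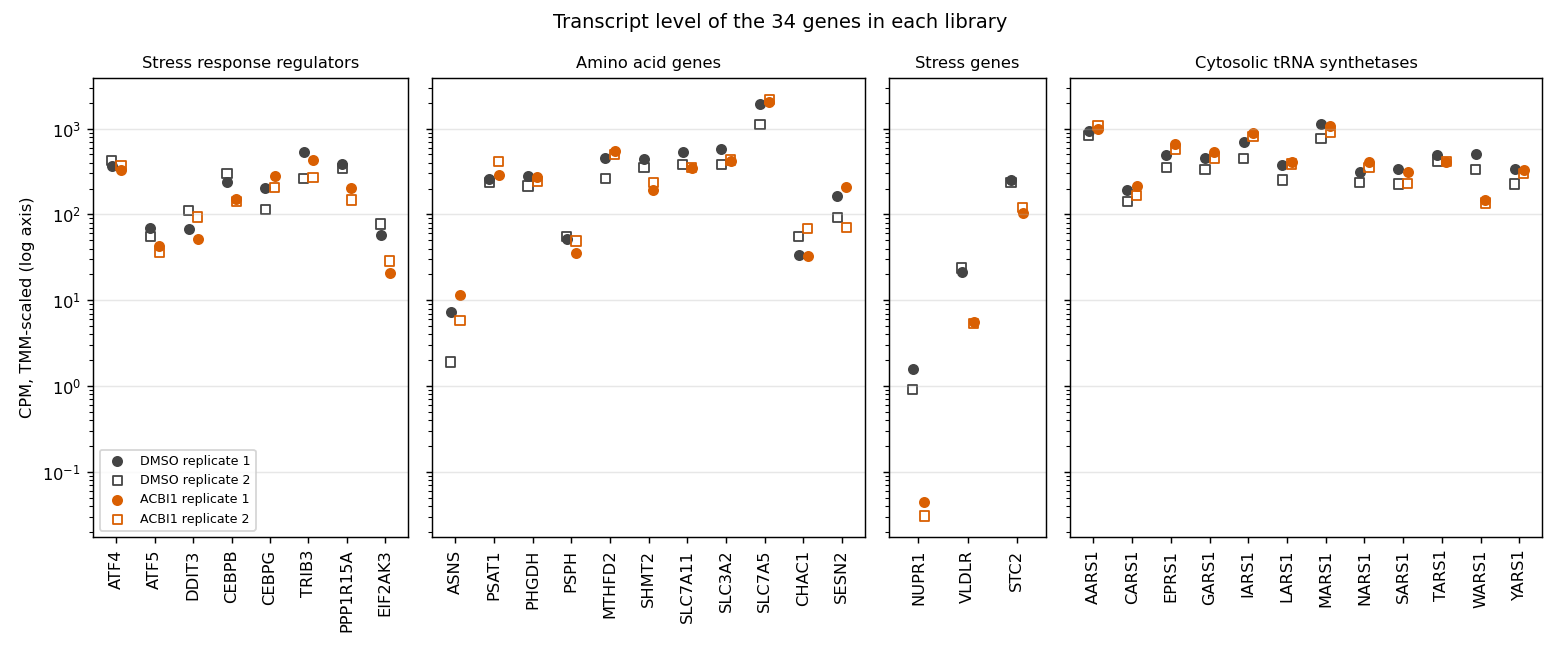
TMM-scaled CPM (log axis) of each of the 34 genes in each of the 4 libraries, with DMSO in grey and ACBI1 in orange, replicate 1 as filled circles and replicate 2 as open squares. NUPR1, VLDLR, STC2 and WARS1 show clear gaps between the colours, and TRIB3, CHAC1 and SESN2 show wider gaps between replicates than between groups.

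The further stress genes were each lower with ACBI1, as was known when they were named. NUPR1 (chr16:28532708-28539174, minus strand), a small stress-induced chromatin protein, was rare: 1.56 and 0.904 CPM with DMSO and 0.0447 and 0.0305 CPM with ACBI1. This is 192 counts against 6, or 32.3 times more per library size (95% exact interval 14.6 to 89.2, counting error only). The log2 change was -4.95 (SE 0.58, edgeR adjusted p 0.00607). VLDLR (chr9:2621834-2660053, plus strand), the very low density lipoprotein receptor, stood at 21.5 and 23.8 CPM with DMSO and at 5.57 and 5.34 CPM with ACBI1. Replicates lay close together, and the fall was 4.15-fold (log2 change -2.05, SE 0.20, edgeR adjusted p 0.00395). STC2 (chr5:173314713-173329503, minus strand), a secreted glycoprotein induced by stress in the endoplasmic reticulum, stood at 251 and 234 CPM with DMSO and at 103 and 121 CPM with ACBI1. It fell 2.16-fold (log2 change -1.11, SE 0.17, edgeR adjusted p 0.0116), and the call was lost without ACBI1 replicate 1 (adjusted p 0.0736).

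Of the 12 cytosolic synthetases, which join amino acids to their tRNAs, 1 was called, a share not above that over all genes tested. WARS1 (chr14:100333788-100376805, minus strand), for tryptophan, stood at 509 and 334 CPM with DMSO and at 146 and 136 CPM with ACBI1, a 2.99-fold fall (log2 change -1.58, SE 0.24, edgeR adjusted p 0.0113). Both ACBI1 libraries were below both DMSO libraries, and leaving out any 1 library kept the call (log2 change from -1.86 to -1.24, adjusted p from 9.46e-05 to 0.0384). Interferon gamma is known to induce WARS1. Exons of other genes overlap 10.6% of its exonic length. Such overlap exceeded 10% in 8 of the 34 genes. It was 15.1% for EIF2AK3, 11.8% for CEBPB, 33.2% for MTHFD2 and 13.3% for MARS1, so part of their counts is uncertain too.

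The other 11 synthetases had log2 changes from -0.12 to 0.56, with a median of 0.22. EPRS1, the fused glutamate and proline enzyme, stood at 487 and 350 CPM with DMSO and at 659 and 570 CPM with ACBI1. The groups did not overlap, but the log2 change of 0.56 (SE 0.22) was not called (edgeR adjusted p 0.137). IARS1, for isoleucine, had 695 and 448 CPM with DMSO against 883 and 804 CPM with ACBI1 (log2 change 0.56, edgeR adjusted p 0.171). Without DMSO replicate 1 both were called higher, but neither was without DMSO replicate 2. IARS1 was also called higher without a filter on low counts (edgeR adjusted p 0.0488).

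NARS1 (asparagine) had a log2 change of 0.47, LARS1 (leucine) one of 0.34, GARS1 (glycine) one of 0.33 and AARS1 (alanine) one of 0.22, each with both ACBI1 libraries above both DMSO libraries and none called. Groups overlapped for CARS1 (cysteine, log2 change 0.20), YARS1 (tyrosine, 0.15), MARS1 (methionine, 0.05), SARS1 (serine, -0.07) and TARS1 (threonine, -0.12). The sign of SARS1 turned under scaling by library size only (log2 change 0.02). All 12 synthetases were higher in DMSO replicate 1 than in DMSO replicate 2, and 10 of 12 were higher in ACBI1 replicate 1 than in ACBI1 replicate 2. Their summed level was 6264 and 4567 CPM with DMSO and 6354 and 5794 CPM with ACBI1, so that DMSO replicate 2 was the low library.

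Levels between genes were compared per length, as TPM (transcripts per 1000000 transcripts) over the union of exons in GENCODE release 29. With DMSO, AARS1 was the most abundant synthetase at 734 and 681 TPM, then MARS1 at 561 and 404 TPM and GARS1 at 380 and 296 TPM. TARS1, IARS1, EPRS1, SARS1, NARS1 and WARS1 followed with means from 281 down to 236 TPM, and their replicate ranges overlapped, so that their order was not resolved. The range of GARS1 also overlapped those of TARS1, IARS1, EPRS1 and SARS1. LARS1 and YARS1, which overlapped each other, came next, and CARS1 was last at 65.9 and 51.3 TPM. With ACBI1, AARS1, MARS1 and GARS1 had ranks 1 to 3 by mean and CARS1 rank 12. The range of GARS1 overlapped those of MARS1, IARS1 and EPRS1, so that its rank was not resolved. WARS1 went from rank 9 (279 and 193 TPM) to rank 11 (86.5 and 78.7 TPM), where its range overlapped that of CARS1 (80.1 and 61.0 TPM).

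The rest of the pathway was read from 5 further lists. Of 19 genes of the ATF6 and XBP1 branches, which act beside PERK in the unfolded protein response, 13 were called lower and 0 higher, against 10.6% called lower over all genes tested. All 19 had a negative log2 change, with a median of -1.38. DNAJB9, a co-chaperone induced by XBP1, was at 76.9 ± 9.22 CPM with DMSO and at 13.6 ± 0.299 CPM with ACBI1 (SD, n = 2; log2 change -2.50, edgeR adjusted p 0.00193). MANF, a secreted protein of this response, had a log2 change of -2.09 (edgeR adjusted p 0.00753). XBP1, the transcription factor that IRE1 activates by splicing, was at 306 ± 26.6 CPM with DMSO and at 79.7 ± 10.3 CPM with ACBI1 (SD, n = 2; log2 change -1.94, edgeR adjusted p 0.00365).

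The promoter windows of these 19 genes were searched for the ER stress response element, on both strands as CCAAT, any 9 bases and CCACG. It was found in 6 of the 19, in 0 of the 28 genes described above with a window, and in 0.0916% of all genes. The 19 were listed as genes of this stress response, so a share above that of all genes describes their choice only. Whether genes with and without the element changed differently was not tested. The XBP1 match is shown as an example, with the match in capitals.
XBP1 (chr22:28800577-28800647, minus strand): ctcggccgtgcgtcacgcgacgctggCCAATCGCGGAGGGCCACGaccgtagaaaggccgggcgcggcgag

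Other known ATF4 targets leaned towards lower levels, and 18 of 24 had a negative log2 change. Of the 24, 12 were called lower and 1 higher, against 10.6% lower and 6.75% higher over all genes tested. The median log2 change was -0.82. GDF15, a secreted stress cytokine, had 136 and 56.6 CPM with DMSO and 3.91 and 1.85 CPM with ACBI1 (log2 change -5.05, edgeR adjusted p 0.00540). FGF21, a stress hormone, rested on 52 counts against 4, or 13.1 times more per library size (95% exact interval 4.83 to 49.998, counting error only). It passed the filter through the DMSO libraries alone, and its fit gave a fall (log2 change -3.63, edgeR adjusted p 0.0351). DDIT4, an inhibitor of mTORC1, had a log2 change of -3.16 (edgeR adjusted p 0.00193). Of the 7 targets in this list with the C/EBP-ATF element core in a window, 4 were called lower. Of the 12 with a window but without the core, 5 were called lower and 1 higher. The difference was not tested.

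In the remaining 3 lists 4 of 40 genes were called, each of them higher, against 17.4% called and 6.75% called higher over all genes tested. VARS1, for valine, was called higher among 11 further cytosolic synthetases and scaffold subunits, from 241 ± 52.0 to 442 ± 23.3 CPM (SD, n = 2, log2 change 0.87, edgeR adjusted p 0.0373). Of 17 mitochondrial synthetases 2 were called higher, MARS2 (log2 change 0.67, edgeR adjusted p 0.0440) and NARS2 (log2 change 0.62, edgeR adjusted p 0.0441). Of 12 genes of the eIF2 machinery EIF2AK4, the kinase GCN2, was called higher, from 163 ± 17.8 to 276 ± 1.22 CPM (SD, n = 2, log2 change 0.77, edgeR adjusted p 0.0308). These 4 calls were all lost when either ACBI1 library was left out, and without DMSO replicate 2 the 3 lists together held 1 call.

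**Figure D4:**
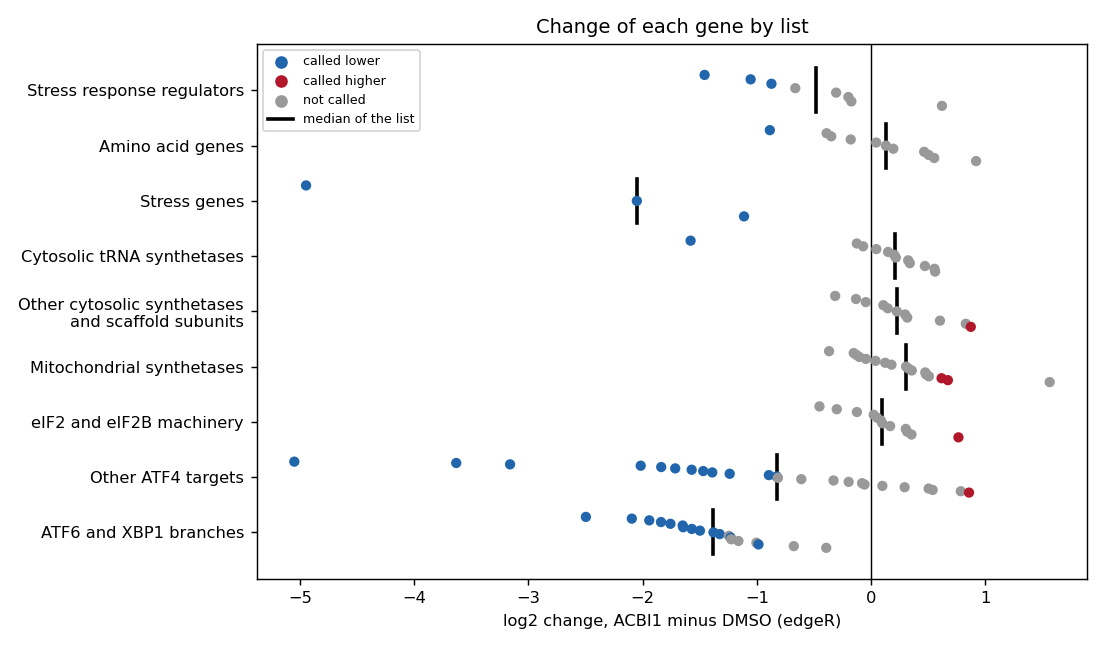
Fitted log2 change of each gene (ACBI1 minus DMSO) by list, with the 34 genes in the upper 4 rows and the 5 further lists under them. Black bars are list medians. All 19 genes of the ATF6 and XBP1 branches lie left of zero, and the synthetase lists centre slightly to the right of it.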

How the data were processed

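RNA-seq counts of 4 libraries (2 DMSO, 2 ACBI1, by sample title) were used. The deposited values are raw counts per gene symbol; the submitters' processing notes name TopHat2 2.1.1, HTSeq 0.11.0 and hg38. Annotation and strand setting are not given in the sources used here, so antisense and overlapping genes can take or lose reads. Reads in genes were 84.6% to 86.1% of reads listed, and 5 lines for reads given to no gene were left out.

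The 19159 genes kept by filterByExpr (minimum count 10, minimum total 15) were scaled by TMM and tested on treatment alone with edgeR 4.0.16 (glmQLFit, glmQLFTest, two-sided) in R 4.3.3, with p-values adjusted over all of them. SE is the log2 change over the square root of F, and 95% intervals use the t distribution of the fit. For 1 value in 2 against 2 libraries, the smallest exact permutation p is 0.333. Replicates differed by more than sampling noise (chi-square per degree of freedom 158 and 102). Scripts were tested on simulated counts. Alternatives were other scalings, no filter, DESeq2 1.42.0, limma-voom (limma 3.58.1), a replicate block, a threshold of 0.01 and each library left out.

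All 34 genes are named, with at most 3 called genes of each further list. Genes and lists were chosen with earlier results of these data known. Exon lengths, overlaps and the TPM computed from them used GENCODE release 29, to which 93.2% of features matched. Gene windows came from RefSeq (GRCh38.p14).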

Additional observations from a re-analysis of the deposited data

How the results depend on the processing

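All 8 genes called lower had a negative log2 change under every alternative run, and all 8 were called under other scalings, no filter, DESeq2, limma-voom and the replicate block. The threshold of 0.01 left 2 of the 34 (NUPR1 and VLDLR), 783 of all genes, 8 other ATF4 targets and 0 of the other synthetases and eIF2 genes. With no filter, 5518 genes in all and 7 of the other synthetases and eIF2 genes were called. The replicate number as a block gave 7909 calls in all, 17 of the 34 genes (7 higher, 10 lower; ATF5, CEBPG, ASNS, PSAT1, PSPH, MTHFD2, EPRS1, IARS1 and NARS1 beside the 8) and 12 of the other synthetases and eIF2 genes. Deviations of same-numbered libraries correlated at 0.44 across genes, but the labels do not say that the numbers pair samples.

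With 1 library left out (the lone library is taken to vary like the other group), 1379 to 4292 genes were called in all, 5 to 13 of the 34, 11 to 17 of the ATF6 and XBP1 branches, 9 to 15 other ATF4 targets and 0 to 4 of the other synthetases and eIF2 genes. Of the 34, 13 were called without DMSO replicate 1 (6 higher), and 5 without either ACBI1 library. Median log2 changes ran from -0.68 to -0.56 for the regulators, -0.14 to 0.26 for the amino acid genes, -2.12 to -1.98 for the further stress genes and 0.0394 to 0.46 for the synthetases. Scaling by library size only moved all log2 changes by 0.0873 in the median, and the median of the further stress genes to -1.96.

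Signs that turned belong to genes not called: SARS1 under scaling by library size only (0.024), and SESN2 with limma-voom (-0.0196) and with the replicate block (-0.0176). With 1 library left out the log2 change ran from -0.80 to 0.10 for DDIT3, -0.63 to 0.41 for TRIB3, -0.14 to 0.26 for PHGDH, -0.45 to 0.15 for SLC3A2, -0.44 to 0.64 for CHAC1, -0.87 to 0.71 for SESN2, -0.0031 to 0.44 for CARS1, -0.21 to 0.35 for MARS1, -0.33 to 0.25 for SARS1, -0.24 to 0.0033 for TARS1 and -0.12 to 0.48 for YARS1. The cause was not tested. At 2 libraries per group, a change under 2-fold often cannot be told from the spread between replicates.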
